A study of Mus musculus with 15 samples.

Results

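Chromosome 5 was represented by 2612 distinct non-control probes among the 42404 of a mouse array, of which 40726 lay on autosomes. The members were all probes whose position in the array files began with chr5, taken in order of position. No measured value decided which probes of the chromosome entered. The choice of this set and of the boundary below was made with earlier results of these data known. Of the members, the last 461, from the probe that starts at 136000133, are called the distal part, and 2151 made up the rest. All 2612 were measured in each of 8 tissues. The first probe started at 3279641 and the last ended at 152452546, with a median spacing of 21.8 kb, and the files name no genome build for these positions. Probes were 45 to 60 bases long.

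Array comparative genomic hybridisation, which lets DNA from tissue and reference bind to the same probes in different dyes, was used to ask which chromosomes were gained or lost in liver tumours that lack a spindle checkpoint gene. The value given throughout is the log2 ratio of tissue over reference, centred on the autosomal median of each array, so that 0 is the level of the median autosomal probe. The 5 hepatocellular carcinomas, HCC 1 to HCC 5, were set beside unaffected livers 1 to 3 from the same 3 mice. A total of 15 arrays were used, with both dye orientations for every tissue except HCC 3, which had the forward orientation alone.

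All mice were of the strain labelled C57BL/6.129-Mad2flox,p53flox,AlbuminCre, in which the albumin promoter drives Cre in hepatocytes, so other cells of the liver keep their floxed alleles. Mad2 is the gene Mad2l1 and p53 the gene Trp53. Mouse 3151, which gave HCC 1, HCC 2 and unaffected liver 1, was a female of 16.4 months with genotype Mad2(f/f) p53(f/+). Mouse 3760, which gave HCC 3 and unaffected liver 2, was a male of 13.8 months. Mouse 4033, which gave HCC 4, HCC 5 and unaffected liver 3, was a male of 13.9 months. Both males were Mad2(f/f) p53(f/f). The unaffected livers therefore carried the same floxed alleles and Cre as the tumours. The reference was normal liver DNA of C57BL/6.129 mice of the other sex. In bulk DNA a change in fewer cells and a smaller change per cell cannot be told apart.

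Chromosome 5 of the mouse holds several gene clusters that matter in liver. The albumin family, the UGT2 glucuronosyltransferases and the Cyp3a monooxygenases are expressed mainly in hepatocytes, and the ligands of the epidermal growth factor receptor and the CXC chemokines sit near the albumin family. Its distal part carries Mad1l1, whose product holds Mad2 at unattached kinetochores, and Brca2, a gene of DNA repair. The chromosome has no gene that the mice were bred to delete.

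A few probes carry the observations below. The first pair is shown because the ratio of HCC 2 changed level between them: BC038925 is the last probe before the change, at chr5:138636339-138636391, and BC055004 the first after it, at chr5:138684047-138684106. The next 4 are shown because their ratio separated the mice rather than the tumours from the livers. They are 2 of the Lhfpl3 probes, at chr5:22284051-22284110 and chr5:22633678-22633737, and 2 probes without a gene name beyond Zfp157, at chr5:138954408-138954467 and chr5:138957472-138957531. The last is the Gtf2i probe at chr5:134713687-134713746, from a region that was higher in mouse 4033. Sequences are those of the array files, 5′ to 3′, and the whole probe hybridises, so no bases are capitalised. None of the 7 shares a run of 30 bases with another probe of the array on either strand.
BC038925: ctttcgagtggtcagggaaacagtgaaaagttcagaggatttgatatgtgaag
BC055004: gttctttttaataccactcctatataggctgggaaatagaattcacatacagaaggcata
Lhfpl3, first probe: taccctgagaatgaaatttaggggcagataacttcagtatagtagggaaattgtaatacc
Lhfpl3, second probe: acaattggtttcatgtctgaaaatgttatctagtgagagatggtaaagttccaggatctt
Beyond Zfp157, first probe: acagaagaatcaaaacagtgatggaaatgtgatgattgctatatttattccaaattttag
Beyond Zfp157, second probe: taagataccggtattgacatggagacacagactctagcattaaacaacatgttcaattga
Gtf2i: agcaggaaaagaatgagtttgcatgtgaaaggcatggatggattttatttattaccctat

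Before the comparisons, the arrays were checked on these members. No spot of chromosome 5 was saturated on any array. On any array, at most 50 of its 2650 spots had a tissue signal that was not well above background, and at most 12 carried an outlier mark. The X chromosome, which differs by 1 copy between tissue and reference, gave a mean absolute log2 ratio of 0.89 in the unaffected livers and serves as a yardstick. The forward and dye-swap arrays of HCC 2 gave chromosome 5 levels of -0.15 and -0.13, and those of HCC 5 gave 0.36 and 0.37. The largest gap between orientations was in unaffected liver 1, at -0.07 and -0.02. Over the 2612 probes, which share arrays and are no independent replicates, the correlation between the orientations of a tissue ran from -0.12 to 0.35. Levels of the chromosome, its parts and its windows are therefore means over several probes. Values of listed genes rest on few probes, mostly 1 to 3.

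Chromosome 5 was higher than the autosomal median in 4 tumours and lower in HCC 2. Its level, the mean over all members, was 0.13, -0.14, 0.21, 0.13 and 0.37 for HCC 1 to HCC 5. The unaffected livers were at -0.04, 0.01 and -0.00. Each of the 4 raised tumours lay above all 3 livers and HCC 2 lay below them. HCC 5 was the 1 tumour past 0.3, the size taken here as a shift of a whole chromosome, and there chromosome 5 ranked 4 from the highest of the 19 autosomes. Against the liver of its own mouse the tumours stood 0.17, -0.10, 0.20, 0.13 and 0.37 away, in the same order.

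The tumours averaged 0.14 ± 0.18 (SD, n = 5), while the livers averaged -0.01 ± 0.03 (SD, n = 3). Their difference of 0.15 had a standard error of 0.12 and did not pass the threshold (limma over 19 autosomes, Benjamini-Hochberg adjusted p = 0.45). By that test 1 of the 19 autosomes was called, or 5.26%, and chromosome 5 was 9 of 19 in order of p. Tissues of 1 mouse are not independent, and p-values here measure the spread between tissues. Within scan day 1 the difference was 0.28 and within scan day 2 it was 0.08. A centring on the mode of smoothed ratios raised chromosome 5 of HCC 1, HCC 2 and HCC 5 by 0.31, 0.18 and 0.33, to 0.44, 0.04 and 0.70. With that centring HCC 1 also passed 0.3, and the sign of the HCC 2 level turned. Signs given below are those with centring on the median unless stated otherwise.

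At the scale of 5 Mb windows, HCC 2 alone changed its side of 0 along the chromosome among the tumours. Over the 5 Mb windows up to 135 Mb, the level in HCC 5 ranged from 0.33 to 0.49 and in HCC 1 from 0.08 to 0.22. The same windows ranged from -0.27 to -0.13 in HCC 2 and from -0.14 to 0.01 in unaffected liver 1. In the window from 140 to 145 Mb HCC 2 was at 0.28, in the next at 0.33 and in the last at 0.32. In those 3 windows HCC 1 was at 0.17 to 0.23 and HCC 5 at 0.33 to 0.35, within or just above the ranges of their other windows.

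**Figure D1:**
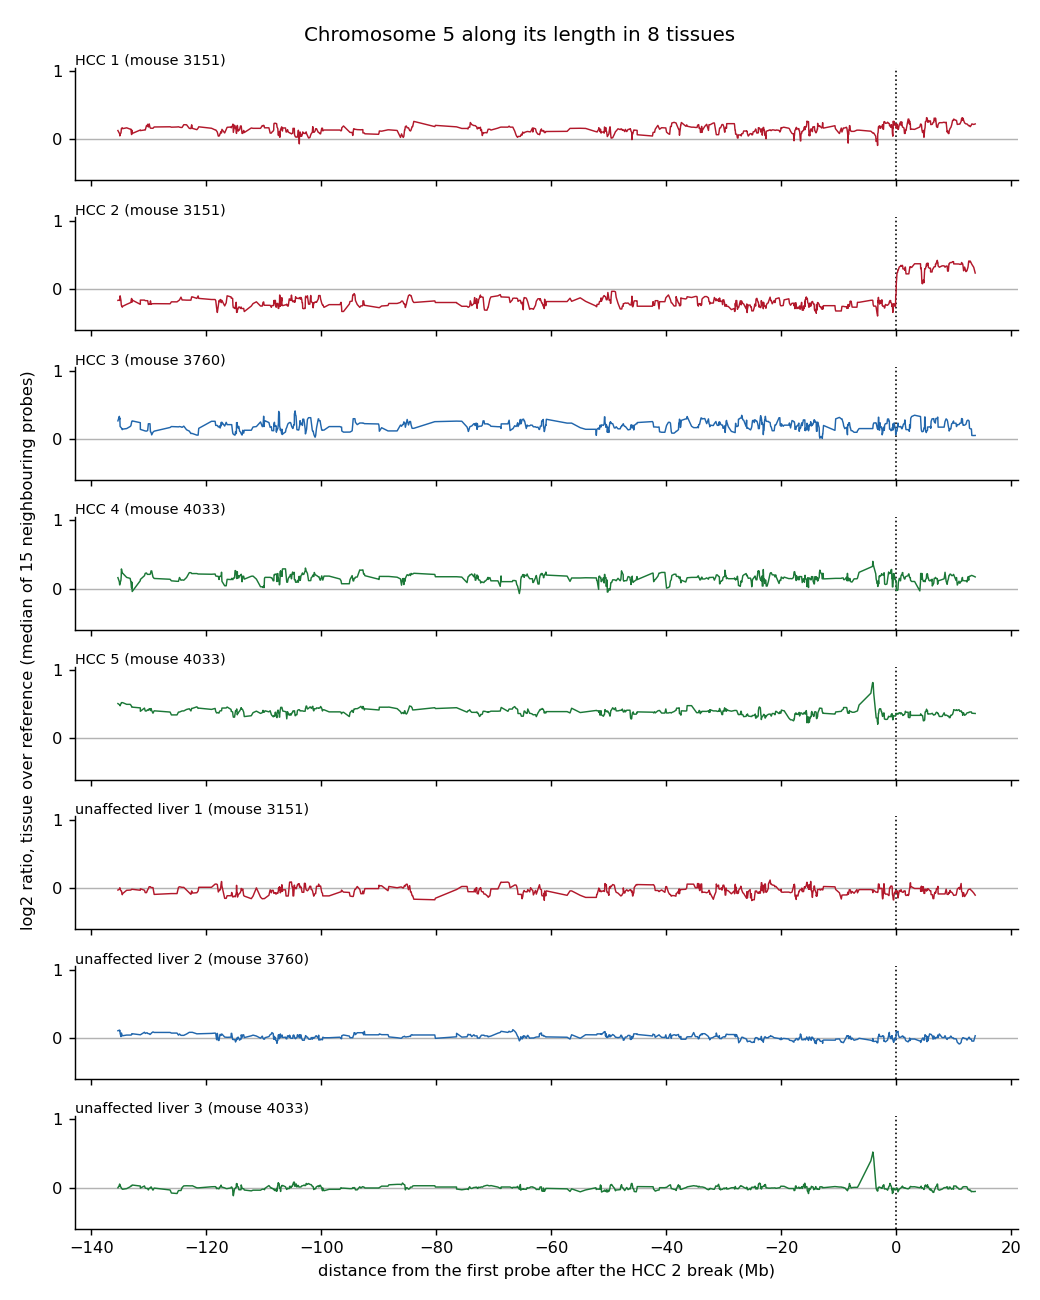
The log2 ratio of tissue over reference (y axis, running median of 15 neighbouring probes) is plotted against distance in Mb from the first probe after the HCC 2 break (x axis, dotted line at 0), 1 panel per tissue, coloured by mouse. HCC 2 changes from a mean of -0.20 to 0.29 at the line, and no other tissue has a step of that size there. The peak shortly before the line in HCC 5 and unaffected liver 3, less in HCC 4, is the Gtf2i region.

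The distal part was above 0 in all 5 tumours, including HCC 2, whose rest was below 0. Its mean was 0.18, 0.15, 0.21, 0.11 and 0.32 for HCC 1 to HCC 5. The livers were at -0.06, -0.00 and -0.02, below every tumour. The rest stood at 0.12, -0.20, 0.21, 0.13 and 0.38 in HCC 1 to HCC 5 and at -0.04, 0.01 and 0.00 in the livers. The distal part averaged 0.19 ± 0.08 (SD, n = 5) in HCC against -0.03 ± 0.03 (SD, n = 3) in liver, and the rest averaged 0.13 ± 0.21 (SD, n = 5) against -0.01 ± 0.03 (SD, n = 3). These levels are given without a test of their own, because the boundary was drawn with the step of HCC 2 known.

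Distal minus rest was 0.06, 0.36, -0.00, -0.02 and -0.05 for HCC 1 to HCC 5. In the livers it was -0.02, -0.01 and -0.02. The group difference of 0.09 rested on HCC 2 and did not pass an exact two-sided permutation test (p = 0.59 over 56 splits, smallest possible p 0.0179). Because the boundary was drawn with the step of HCC 2 known, this p does not have its usual meaning and is given as a description. Without HCC 2 the difference was 0.01. Scan day 1, which held HCC 3, HCC 5 and unaffected livers 2 and 3, gave -0.01, and scan day 2, which held HCC 2, gave 0.16, so the direction did not hold within both days. HCC 2 differed from the other 7 tissues in both of its arrays, at 0.39 in the forward and 0.32 in the dye-swap orientation.

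**Figure D2:**
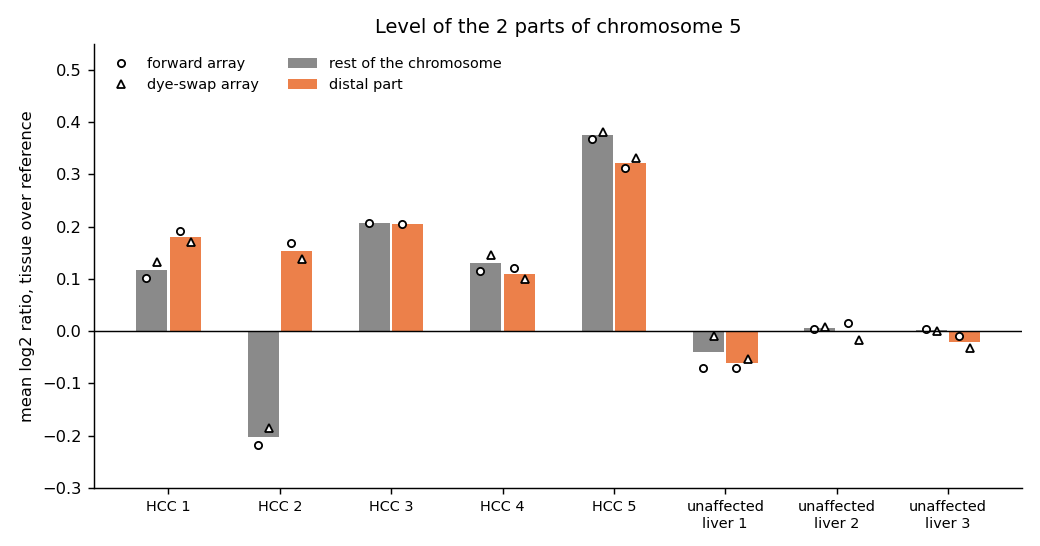
Bars give the mean log2 ratio of tissue over reference in the rest (grey) and the distal part (orange) of chromosome 5 for each tissue, and circles and triangles give the forward and dye-swap array. In HCC 2 the bars lie at -0.20 and 0.15, whereas in each other tissue both bars have nearly the same height.

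The step of HCC 2 was placed by partition between 2 neighbouring probes, and the uncertainty of that position was not estimated. Partition of HCC 2 minus its own liver gave 2 segments, one of 2274 probes at -0.16 and one of 338 probes at 0.35 that ran to the end of the chromosome. The gap between them was 47.7 kb, from position 138636391 to 138684047, and the distal segment was 13.8 Mb long and held probes of 155 named genes. Against the reference, HCC 2 averaged -0.20 ± 0.20 (SD over 2274 probes) before the break and 0.29 ± 0.33 (SD over 338 probes) after it. Of the probes after the break, 96.7% lay above the median of those before it. The share was 48.5% for unaffected liver 1, 68.9% for HCC 1 and between 38.5% and 52.4% for the remaining tissues.

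The step was 0.49 in HCC 2, against 0.05, 0.01, -0.03 and -0.05 for HCC 1, 3, 4 and 5 and -0.02, -0.00 and -0.03 for the livers. These are descriptions, since the position was chosen on HCC 2. The first probe after the break was the same when the forward arrays or the dye-swap arrays of HCC 2 and its liver were partitioned alone, with steps of 0.53 and 0.50. It was also the same under the other ways of making the ratio that were tried. The step was smaller than the X yardstick of 0.89, but that yardstick sets 1 copy against 2. For 3 copies against 2 the log2 ratio is 0.58, so the X is no direct scale for a gain of 1 copy. In HCC 2 the difference between the segments of chromosome 5 was the second in size among its autosomes, 0.52 after chromosome 1 with 0.56. Among 95 pairs of a tumour and an autosome, 5 held segments of at least 100 probes whose means differed by 0.3 or more against the own liver.

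The probes at the break were noisy one by one. Before it, the probes of Cops6, a subunit of the COP9 signalosome, of Ap4m1, a subunit of the AP-4 adaptor complex, of Cnpy4 and of BC038925 read -0.10, -0.06, -0.51 and -0.26 in HCC 2. After it, BC055004, 0910001L09Rik, BC037034 and Gpc2, a glypican of the cell surface, read 0.23, 0.08, 0.25 and 0.13. Both probes of Stag3, a meiotic cohesin subunit, read 0.51 and 0.76. As means of both arrays, the last 4 probes before the break were thus all negative and the first 6 after it all positive. The next probe, at chr5:138840892-138840951, read -0.34 in HCC 2, and Ap4m1 read 0.02 on the forward array of HCC 2. The break was itself placed on HCC 2, so these signs are a description. In unaffected liver 1 the same 4 probes before the break ran from -0.15 to 0.47 and the 6 after it from -0.25 to 0.20, so the sides overlapped there.

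**Figure D3:**
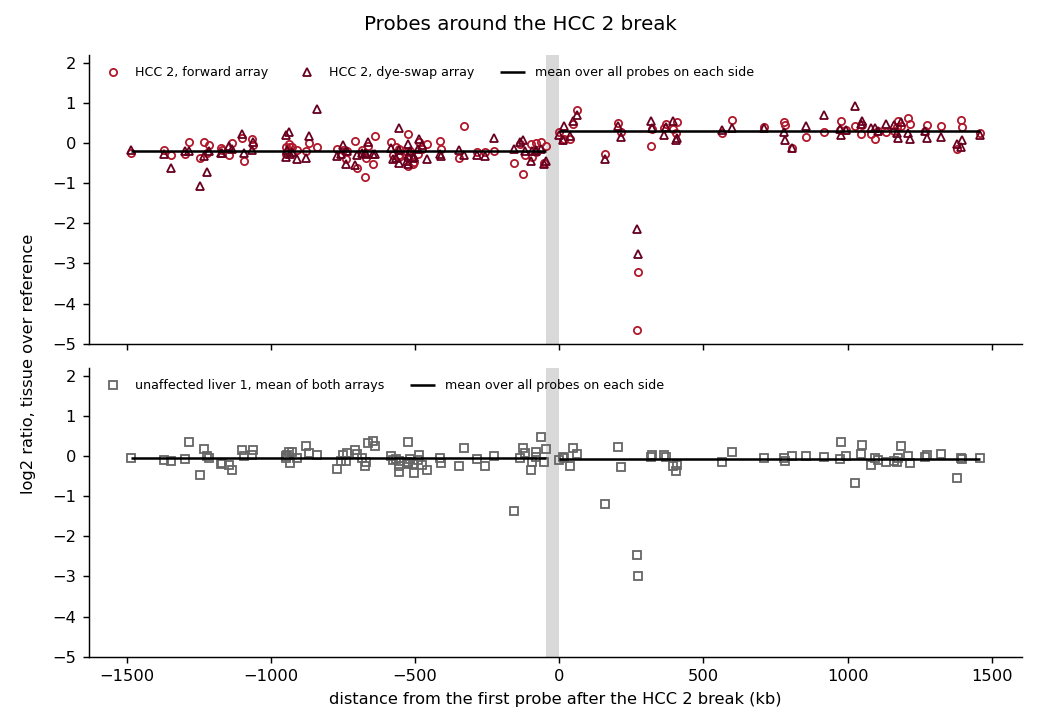
Log2 ratios of single probes within 1500 kb of the HCC 2 break are plotted by distance in kb, with the forward and dye-swap arrays of HCC 2 above and unaffected liver 1 below. Black lines are the means over all chromosome 5 probes on each side, -0.20 and 0.29 in HCC 2 and -0.04 and -0.06 in the liver, the grey band is the 47.7 kb without a probe, and the points below -2 are the probe pair beyond Zfp157.

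The other tumours had no step of this size. HCC 1 minus its own liver split into 2161 probes at 0.16 and 451 probes at 0.25, a difference of 0.09 that began at 136253103, before the break of HCC 2 from the same mouse. HCC 5 minus its own liver split at 111258160 into 0.39 and 0.34. HCC 3 and HCC 4 each formed 1 segment of all 2612 probes, at 0.20 and 0.13.

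Genes were grouped into 8 lists, and 84 of the 97 listed genes had at least 1 probe. The HCC mean was above the liver mean for 80 of the 84, with a median difference of 0.15, the same as the median of 0.15 over all 2612 members, of which 92.8% were higher in HCC. Over all autosomal probes the median was -0.00 and 49.8% were higher. No listed gene had a probe that passed the adjusted threshold. Of the 73 listed genes before the break, 66 were below 0 in HCC 2, where 22.9% of all members, on both sides, were above 0. The 11 after the break were above 0 in HCC 2 and in each other tumour. All 338 members after it averaged 0.17, 0.29, 0.22, 0.10 and 0.32 in HCC 1 to HCC 5. Because the break was placed on HCC 2, these counts of HCC 2 are no separate support for it. Centring on the mode raised chromosome 5 of HCC 2 by 0.18, so the count below 0 holds for centring on the median.

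**Figure D4:**
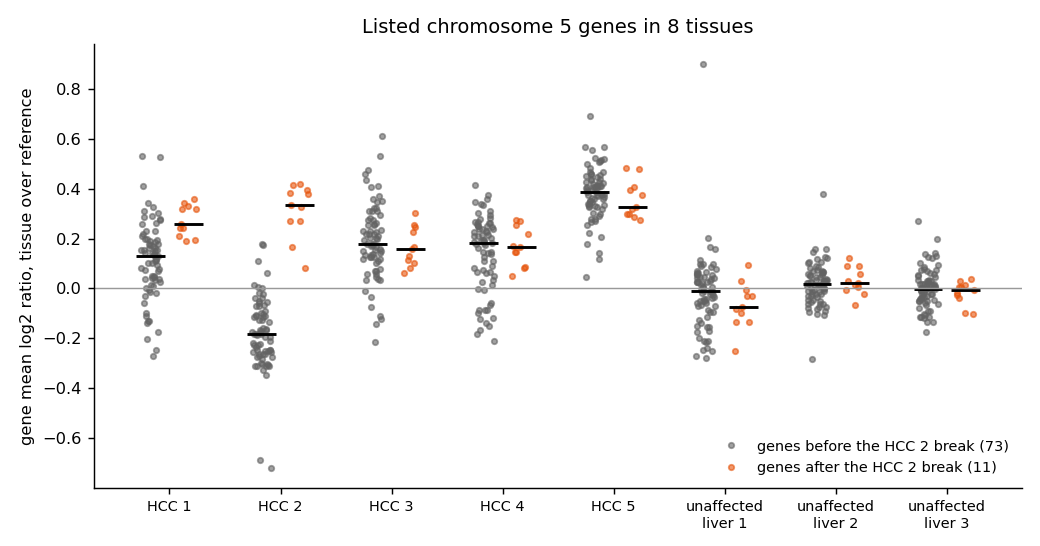
Each point is the mean log2 ratio of tissue over reference of 1 listed gene, with 73 genes before (grey) and 11 after (orange) the HCC 2 break, and black lines are medians. In HCC 2 the medians are -0.18 before and 0.33 after the break, while in HCC 1 they are 0.13 and 0.26 and in HCC 5 they are 0.39 and 0.33.

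The albumin family, the plasma carrier genes Alb, Afp, Afm and Gc, followed the rest of the chromosome. Its median was 0.15, -0.20, 0.17, 0.19 and 0.44 in HCC 1 to HCC 5, and -0.15, 0.09 and 0.02 in the livers. Alb, the albumin gene, read 0.26, -0.26, 0.17, 0.18 and 0.46 in HCC 1 to HCC 5 and -0.14, 0.11 and 0.08 in the livers. HCC 2 was therefore the tumour with the lowest Alb ratio and HCC 5 the one with the highest. Afp, the fetal albumin relative, read 0.08, -0.17, 0.53, 0.19 and 0.48 in the tumours and -0.15, 0.38 and 0.09 in the livers, with HCC 3 and liver 2 of mouse 3760 both high. Afm, the vitamin E carrier afamin, had the largest difference of the list, 0.21, with the tumours at 0.10 ± 0.21 (SD, n = 5) and the livers at -0.10 ± 0.07 (SD, n = 3). Gc, the vitamin D carrier, differed by 0.20, from 0.17 ± 0.16 (SD, n = 5) and -0.03 ± 0.13 (SD, n = 3).

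The conjugating enzymes lie a few megabases before the albumin family. Of 13 listed UDP-glucuronosyltransferase and sulfotransferase genes, 9 had a probe and 8 had a higher HCC mean. Their median was 0.04, -0.11, 0.35, 0.06 and 0.35 for HCC 1 to HCC 5. The glucuronosyltransferase genes are related in sequence, as are the sulfotransferase genes, so probes within each family may share signal, which was not tested. Ugt2a1, an olfactory glucuronosyltransferase, had the largest difference, 0.33, with tumours at 0.53, -0.16, 0.41, 0.25 and 0.36 and all 3 livers between -0.06 and -0.05. Sult1d1, a sulfotransferase of amines, was the one with a positive value in all 5 tumours, from 0.02 to 0.51. Sult1e1, the estrogen sulfotransferase, differed by 0.13, and Sult1b1 by -0.04.

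Cytochrome P450 genes fell on both sides of the break. Cyp3a11 and Cyp3a16, drug-metabolising enzymes of hepatocytes, lie after it, and Cyp3a13 and the sterol demethylase gene Cyp51 before it. Cyp3a11 read 0.36, 0.17, 0.06, 0.14 and 0.30 in HCC 1 to HCC 5 and -0.13, 0.01 and -0.03 in the livers. Cyp3a16 read 0.21, 0.42, 0.13, 0.27 and 0.38 in the tumours and 0.09, 0.09 and -0.04 in the livers. Both genes, each with 1 probe, were higher in every tumour than in any liver, as was the distal part as a whole. Cyp3a13 read 0.29, -0.11, 0.22, 0.15 and 0.39, so its HCC 2 value was below all 3 livers, which lay between -0.03 and 0.01. Cyp51 read -0.28 in HCC 2 and 0.52 in HCC 5, its lowest and highest tissues.

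All 7 ABC transporter genes lie before the break and all had a higher HCC mean, by 0.08 to 0.28. The median was -0.17 in HCC 2 and 0.41 in HCC 5. Abcb1a and Abcb1b encode P-glycoproteins, which export drugs, and Abcb4 the bile canalicular transporter of phosphatidylcholine. Abcb1a read 0.23, -0.17, 0.26, 0.15 and 0.41 in HCC 1 to HCC 5 and -0.01, 0.08 and -0.00 in the livers. Abcb4 read -0.30 in HCC 2 and 0.51 in HCC 5, and Abcb1b -0.13 and 0.40. The mitochondrial Abcb8 read -0.17 in HCC 2 and 0.41 in HCC 5. Abcf2 had the largest difference, 0.28, with HCC 1 at 0.53 and unaffected liver 1 at -0.21.

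Among 14 growth factor receptor and ligand genes, 13 had a higher HCC mean. The ligands of the epidermal growth factor receptor, Areg, Btc, Epgn and Ereg, lie in one cluster before the break. Btc, betacellulin, read 0.05, -0.16, 0.21, 0.26 and 0.47 in HCC 1 to HCC 5 and -0.02 to 0.02 in the livers. Ereg, epiregulin, read 0.02 in HCC 2 and 0.39 in HCC 5, and Epgn, epigen, -0.21 and 0.27. Areg, amphiregulin, was the 1 gene of the list with a lower HCC mean, with a difference of -0.24, and its single probe read 0.90 in unaffected liver 1 and -0.13 to 0.22 in the other 7 tissues. Flt1, a receptor of vascular endothelial growth factor, lies after the break and read 0.19, 0.40, 0.25, 0.08 and 0.27 in the tumours. The livers were at -0.25, 0.06 and -0.10, below every tumour, and the difference was 0.33 (smallest limma adjusted p of its 2 probes 0.36). The distal part as a whole was also lower in each liver than in every tumour.

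Of 11 listed chemokine genes, 9 had a probe, all before the break and all with a higher HCC mean. Their median was -0.31 in HCC 2 and 0.39 in HCC 5. Cxcl2, a neutrophil attractant, had the largest difference, 0.30, with tumours at 0.33, 0.06, 0.14, 0.11 and 0.38 and livers at -0.25, -0.01 and -0.04. Its value in HCC 2 was above 0, unlike that of its relative Cxcl1, which read -0.33 there. Cxcl13, which attracts B cells, read -0.31 in HCC 2 and 0.43 in HCC 5, and Cxcl15 -0.25 and 0.44. Each of these 4 genes rests on 1 probe.

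Genes of cell division and DNA repair were the list with most members after the break, 6 of the 19 with a probe, and 18 of the 19 had a higher HCC mean. Mad1l1, the kinetochore partner of the deleted Mad2l1, had the largest difference, 0.34, and read 0.32, 0.08, 0.10, 0.28 and 0.41 in HCC 1 to HCC 5. The livers were at -0.13, -0.06 and -0.10, below every tumour. Brca2 read 0.26, 0.38, 0.11, 0.26 and 0.40 in the tumours and -0.03, 0.02 and -0.02 in the livers, again without overlap. Both genes lie in the distal part, which as a whole showed the same separation. The smallest limma adjusted p of a probe was 0.59 for Mad1l1 and 0.61 for Brca2. Before the break, Cdk5, a kinase best known from neurons, read 0.09, -0.06, 0.08, -0.01 and 0.21 in the tumours and -0.20 to -0.03 in the livers. Ccng2, cyclin G2, read 0.07 to 0.57 in the tumours and 0.03 to 0.20 in the livers. Cdc7, the kinase that fires replication origins, read 0.18 in HCC 2, the reverse of most genes before the break, and 0.17 in unaffected liver 1 of the same mouse.

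The 17 genes of hepatocyte metabolism and its regulators all lie before the break, and 16 had a higher HCC mean. Their median was 0.08, -0.19, 0.18, 0.22 and 0.35 in HCC 1 to HCC 5. Hadha, a subunit of the mitochondrial trifunctional protein of fatty acid oxidation, had the largest difference, 0.22, with -0.20 in HCC 2 and 0.46 in HCC 5. Acacb, an acetyl-CoA carboxylase, read -0.31 in HCC 2, Acads, the short-chain acyl-CoA dehydrogenase, -0.27, and Aldh2, the mitochondrial aldehyde dehydrogenase, -0.23. Aacs, acetoacetyl-CoA synthetase, read -0.11. In HCC 5 these 4 genes read 0.30, 0.27, 0.36 and 0.38. Every one of the 73 listed genes before the break was above 0 in HCC 5, as were 98.2% of all members on the chromosome.

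No probe of chromosome 5 passed the adjusted threshold between HCC and liver (limma over 40726 probes), and none did on any autosome, 0% of those tested. At an unadjusted p under 0.05, 139 of 2612 members were higher in HCC, 5.32% against a background of 5.34%, and 1 was lower, against a background of 2.06%. The 5 members with the smallest p were all higher in HCC. After the break lie 3 of them and 338 of all 2612 members. The break was placed on the values of HCC 2, so this count is a description. Spdyb, of a family of cyclin-dependent kinase activators, read 0.33, 0.30, 0.33, 0.34 and 0.31 in HCC 1 to HCC 5 and -0.13, -0.27 and -0.09 in the livers. Its difference was 0.48 with a standard error of 0.13 (limma adjusted p = 0.31). D930005D10Rik read 0.23 to 0.60 in the tumours and -0.25 to -0.08 in the livers, and the Flt1 probe at chr5:148519391-148519450 read 0.23 to 0.49 and -0.18 to 0.00. AK048739 differed by 0.79, but unaffected liver 1 alone was at -1.20 and the other livers at -0.31 and -0.04. An unnamed probe at chr5:123790184-123790243 read 0.11 to 0.47 in the tumours and -0.26 to -0.12 in the livers, and at 0.29 in HCC 2 it stood apart from the low level around it.

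No 5 Mb window of chromosome 5 passed the adjusted threshold, where 4 of 497 autosomal windows did, or 0.805%. At an unadjusted p under 0.05, 3 of its 31 windows were higher in HCC, against 8.25% of all windows, and 0 were lower, against 1.81%. All 5 tumours lay above all 3 livers in 3 windows, against 11.1% of all windows, and below them in 0, against 6.24%. In both cases these were the last 3 windows, from 140 Mb on. In every other window of the chromosome HCC 2 was the only tumour not above all livers. The last 3 windows are thus set apart by the step of HCC 2. Their differences were 0.24, 0.26 and 0.28, and their limma adjusted p values were 0.49, 0.48 and 0.46.

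Short regions stood apart in the unaffected livers as well as in the tumours. Those described below were chosen from the values, so no test is given for them. Segments of at least 5 probes with a mean at least 0.3 from the chromosome median numbered 2, 3, 0, 1 and 2 in HCC 1 to HCC 5 and 1, 1 and 3 in the livers. The 3 in HCC 2 include pieces of its distal step, 6 probes at 0.33 and 327 probes at 0.31. The second piece is 13.5 Mb long, so not every counted segment is short. That step therefore enters the count, its mean and its test more than once. Tumours had 1.6 ± 1.1 (SD, n = 5) such segments against 1.7 ± 1.2 (SD, n = 3) for the livers, and this difference of -0.07 did not pass the test (exact two-sided permutation p = 1 over 56 splits). When each tumour was set against the liver of its own mouse, the counts were 0, 1, 0, 0 and 0, and the 1 was the distal segment of HCC 2.

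The largest shift lay just beyond Zfp157, a zinc finger gene, 270.4 kb after the HCC 2 break. In mouse 3151 the mean of the 2 probes shown above was -2.57 and -3.19 for HCC 1 and HCC 2 and -2.72 for its liver. In mouse 4033 HCC 4 and HCC 5 read -2.30 and -3.02 and the liver -3.11. In mouse 3760, HCC 3 read 0.81 and the liver 0.94. The sign therefore separated mouse 3760 from both other mice, in tumour and liver alike. The orientations differed widely here, with -3.93 on the forward and -2.45 on the dye-swap array of HCC 2. The tissue signal was not well above background in 15 of 30 probe readings, all of them in mice 3151 and 4033, while the reference signal was above it in all 30. In unaffected liver 3 the first probe was at least 8.81-fold lower in tissue than in reference. HCC 1 was at least 5.38-fold, unaffected liver 1 at least 4.85-fold and HCC 5 at least 4.51-fold lower. The second probe was at least 6.93-fold lower in unaffected liver 1. These bounds set each dim array at the lowest chromosome 5 signal that was well above background on it. A further unnamed probe, at chr5:138840892-138840951, differed among the tissues of mouse 3151, where the liver read -1.19, HCC 2 read -0.34 and HCC 1 read 0.26. In HCC 2, HCC 4, HCC 5 and unaffected livers 1 and 3 the partition joined it and both Zfp157 probes to the pair. In HCC 1 the pair was joined instead to probes after it, among them those of 1700123K08Rik and Zfp68, and in HCC 3 no segment was set apart.

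A second such pair lies in or near Lhfpl3, a gene of the lipoma HMGIC fusion partner family. In mouse 3151 the mean was -0.39 and -0.99 for HCC 1 and HCC 2 and -0.66 for the liver. In mouse 4033 HCC 4 and HCC 5 read -0.23 and -0.42 and the liver -0.81. In mouse 3760, HCC 3 read 0.20 and the liver -0.02, near the level of the chromosome there. Relative to the chromosome median, the 6 tissues of mice 3151 and 4033 were at -0.82 to -0.39 and both tissues of mouse 3760 at -0.03 and 0.01. The forward and dye-swap arrays of a tissue differed by at most 0.27, and all 30 readings were well above background.

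The Gtf2i region was higher in mouse 4033. It spans 13 probes over 498 kb, at chr5:134294164-134792139, with Gats, AK035431, Wbscr16, Gtf2ird2, Ncf1 and Gtf2i. Ncf1 encodes a subunit of the phagocyte NADPH oxidase and Gtf2i and Gtf2ird2 transcription factors of one family. In mouse 4033 the mean was 0.44 and 0.87 for HCC 4 and HCC 5 and 0.54 for the liver. HCC 1 to HCC 3 read 0.06, -0.17 and 0.18, and the livers of the other mice -0.05 and -0.03. Relative to the chromosome median, mouse 4033 was at 0.29, 0.49 and 0.54, and the 5 tissues of the other mice were at -0.09 to -0.00. In unaffected liver 3 every one of the 13 probes read between 0.39 and 0.68.

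One region near the distal end was lower in tumours of more than 1 mouse. The 5 probes from Slc29a4, a monoamine transporter gene, to Tnrc18, at chr5:143188830-143311432, averaged -0.41 in HCC 1 and -0.46 in HCC 4. HCC 2, HCC 3 and HCC 5 averaged -0.11, 0.06 and 0.02 there, and the livers 0.08, -0.02 and -0.15. Relative to the chromosome median, HCC 1, HCC 4 and HCC 5 were at -0.56, -0.62 and -0.36, and the livers were at 0.11, -0.04 and -0.15. The lowest single value was the Tnrc18 probe at 143306813, with -0.91 in HCC 1. That probe was also low in unaffected liver 3, at -0.51. The limits of the region come from HCC 1, the only tissue where these 5 probes formed a segment against the reference. In HCC 4 they formed none, and single probes there ran from -0.77 to -0.06. Against its own liver neither HCC 1 nor HCC 4 had this segment.

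**Figure D5:**
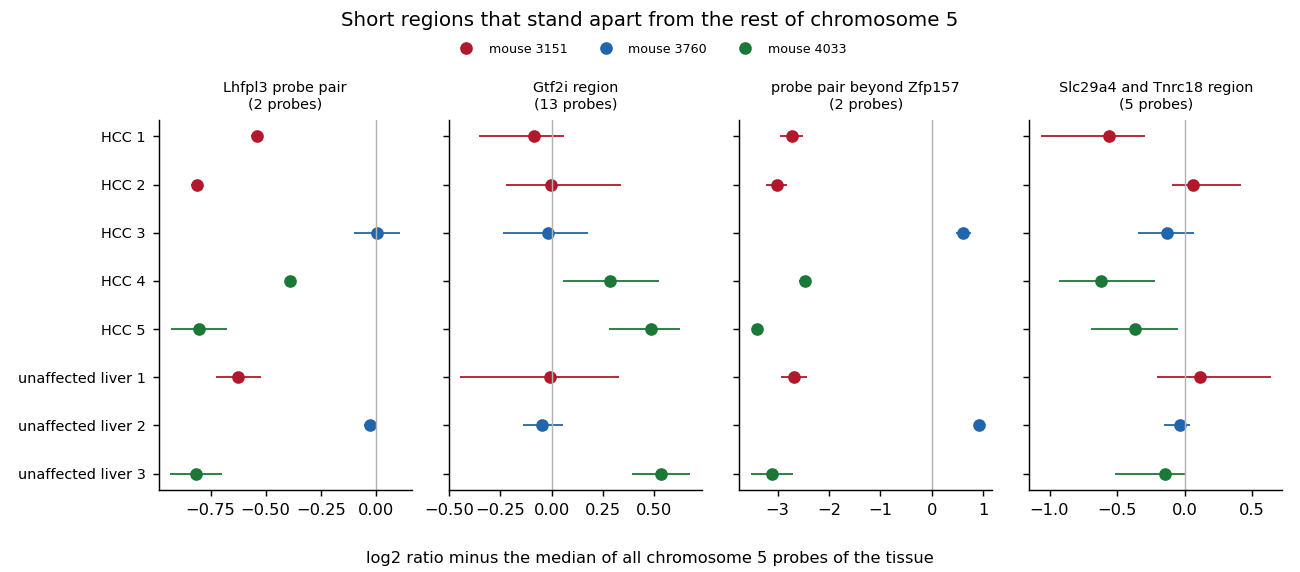
For 4 short regions the log2 ratio of tissue over reference minus the median of all chromosome 5 probes of the tissue is shown (x axis) for each tissue, with the mean as a point, the lowest to highest probe as a line, and colour by mouse. The first 3 regions separate the mice, with mouse 3760 apart in the Lhfpl3 pair and the pair beyond Zfp157 and mouse 4033 apart in the Gtf2i region, and the fourth is low in HCC 1, HCC 4 and HCC 5.

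Single probes that deviated in every tissue of a mouse were counted over the whole chromosome. At least 0.5 from the chromosome median in the same direction, 7 members did so in all 3 tissues of mouse 3151, 0.268% against 0.678% of autosomal probes. In both tissues of mouse 3760 there were 3, against 0.587%, and in all 3 of mouse 4033 there were 14, against 0.648%. Chromosome 5 was thus below the autosomal share in each mouse. The 4 described next were chosen after their values were seen, and 3 of them were opposite in sign between mice. Oasl2, of the oligoadenylate synthetase-like family, read 0.93, 0.68 and 0.77 in HCC 1, HCC 2 and liver 1 of mouse 3151. It read -1.15, -0.48 and -0.83 in HCC 4, HCC 5 and liver 3 of mouse 4033, and 0.24 and 0.02 in HCC 3 and liver 2 of mouse 3760. AK015794 read 1.09, 0.37 and 1.10 in mouse 3151 and -0.95, -0.41 and -0.88 in HCC 4, HCC 5 and liver 3 of mouse 4033. The probe of Tctn2, a gene of the ciliary transition zone, read 1.13, 0.27 and 0.80 in HCC 1, HCC 2 and liver 1, of which HCC 2 did not pass the limit. It read -1.12, -0.52 and -0.88 in HCC 4, HCC 5 and liver 3, all past it. The Rabgef1 probe at chr5:130673929-130673986 read 0.38 to 1.37 in the 5 tumours and passed the limit in all 3 mice.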

How the data were processed

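DNA of 5 HCC and 3 unaffected livers was hybridised with reference DNA on 15 arrays, in a forward and a dye-swap orientation for every tissue except HCC 3. The authors scanned and processed the arrays with Feature Extraction 9.1.3.1, and per the file headers the deposited intensity columns are background-subtracted, dye-normalised red and green signals. The series table deposited by the authors holds log10 ratios, turned on dye swaps, and served as an alternative. The genome build is not given in the sources used here.

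From the processed signals, log2 tissue over reference was computed and the sign turned on swaps. Control spots and outlier-marked spots were left out, spots of a probe averaged, each array centred on its autosomal median without loess, and both orientations averaged, so that a tissue counts once. Subtraction of background and dye normalisation affect dim probes most, which is why bounds are given for them. The number of arrays limits the precision.

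HCC and liver were compared with limma 3.58.1 in R 4.3.3, two-sided with Benjamini-Hochberg adjustment at 0.05, over 19 autosomes, 497 windows of 5 Mb with at least 5 probes, or 40726 autosomal probes. Differences of single values were tested by exact two-sided permutation over 56 splits. Segments of 5 or more probes came from optimal partitioning, where each added segment cost 3 times the product of probe noise squared and the log number of autosomal probes. Python 3.11.15, numpy 2.4.6, pandas 2.3.3, numba 0.67.0 and matplotlib 3.10.9 were used, and the scripts were tested on simulated data.

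The members, the boundary and the 8 gene lists were chosen with earlier results of these data known. Named genes were the alphabetically first 4 of each list with a probe and the one with the largest difference, the 5 probes with the smallest p, genes of the segments with the largest shifts, and those at the HCC 2 break. Samples share a mouse per the labels. Deviations from the group mean correlated at 0.13 to 0.29 over 5 pairs of the same mouse and at -0.21 to 0.09 over 10 pairs of different mice. Of the 1241 gene names of the files, 799 matched current symbols and 145 older ones. Alternatives covered signal, centring, dye orientation, filters, slide, scan day, mouse, segment settings and each left-out tissue. GC content and all alternatives for the HCC 2 step and the short regions were added after seeing the data.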

Additional observations from a re-analysis of the deposited data

Results flagged for a closer look

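Of 16 measures examined in the 5 tumours, 2 had 1 tumour whose gap to the nearest other was large relative to the range. Chance passes the limit used in about 1 of 20 groups, but that rate does not hold for either measure, because both were chosen with these values known, and they are given as descriptions. Distal minus rest was 0.36 in HCC 2, where the boundary was drawn with the step of that tumour known. The probe pair beyond Zfp157, relative to the chromosome median, was at 0.62 in HCC 3, the 1 tumour of mouse 3760, and at 0.93 in unaffected liver 2 of the same mouse. The low values it is set against include readings not well above background.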

How the results depend on the processing

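The chromosome 5 level passed the threshold in none of its alternatives, all limma fits but for 1 exact permutation test (p = 0.21), with differences of 0.08 to 0.32 and limma adjusted p of 0.0761 to 0.80. Leaving out 1 tissue gave 0.09 to 0.22. With the mouse as a replicate block, the pairing taken from the labels, the difference was 0.16 (limma adjusted p = 0.54), distal minus rest was 0.07 and the segment difference was -0.33, and the block changed no call. Distal minus rest turned to -0.0077 with the slide as a block and to -0.012 on scan day 1 alone, and leaving out 1 tissue gave 0.01 to 0.12. The segment difference of -0.07 turned to 0.4 with forward arrays alone, 1 on scan day 2 alone, 1.13 with a penalty of 2, 0.067 with a penalty of 5 and 0.2 with segments of 3 probes. Leaving out 1 tissue gave -0.42 to 0.6, with 0.33 without HCC 3, 0.08 without HCC 4 and 0.6 without unaffected liver 3. The cause was not tested. By limma 0 probes and 0 windows of chromosome 5 passed under any alternative, with smallest adjusted p of 0.108 and 0.0923. The HCC 2 step ranged from 0.49 to 0.52, the mouse 3760 difference beyond Zfp157 from 2.16 to 4.10 and at Lhfpl3 from 0.56 to 0.81, and the mouse 4033 difference at Gtf2i from 0.60 to 0.64. HCC 1 minus its own liver at Slc29a4 and Tnrc18 was -0.49 and moved to -0.19 with centring on the mode. Readings of the pair beyond Zfp157 are limited by background.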
